A study of Mus musculus with 24 samples.

Results

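The levels of 10 genes were followed in RNA from liver cells: Ecm1 and 9 genes that mark hepatic stellate cells or their activation (Lrat, Des, Reln, Rgs5, Dcn, Lum, Timp1, Pdgfrb and Tgfb1). They were selected on results already known from these libraries, in which Ecm1 was among the lowest genes of HFD+eRapa against ND+veh and stellate cell markers were low in HFD+eRapa against both vehicle groups. The differences of the members in those comparisons therefore describe the choice, are given without p-values, and are no independent evidence. The members were found by symbol as 10 of the 55421 genes of the count and FPKM tables. Of these, 9 were among the 13847 genes with enough counts to be tested, and Timp1 was not. A gene is termed called where its edgeR quasi-likelihood p, adjusted over all genes tested, was under 0.05.

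The samples were isolated liver cells of C57BL/6J mice, male by the study's text, from a study of how aged mice respond to a high-fat diet with and without rapamycin, which inhibits mTOR, a kinase that controls growth. All mice were started at 4 months of age on normal diet (ND), with vehicle or with rapamycin in a eudragit capsule (eRapa, 42 ppm in the diet). At 18 months the 8 mice of ND+veh stayed on normal diet with vehicle. For 9 weeks the 7 mice of HFD+veh received a diet with 60% of calories from fat (HFD) with vehicle, and the 9 mice of HFD+eRapa received that diet with eRapa. No group on normal diet with eRapa was analysed here. The cells came from a 2-step perfusion of the liver followed by a Percoll density step, and polyA RNA was sequenced. The cells were labelled hepatocytes, and the albumin gene Alb had a median level of 40980 FPKM (fragments per kilobase of gene and M mapped fragments, M being 1000000).

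Hepatic stellate cells lie between the hepatocytes and the sinusoidal endothelium, where they store vitamin A as retinyl esters. After injury they lose the vitamin A stores and become myofibroblasts that deposit collagen, a change driven by transforming growth factor beta (TGF-beta) and platelet-derived growth factor (PDGF). TGF-beta is secreted in a latent form that must be released from its carrier proteins before it can bind its receptors. Ecm1 encodes the secreted extracellular matrix protein 1, which has been described as keeping TGF-beta latent in liver.

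The libraries held 17.7 to 25.9 M counts. Levels between groups are given as counts per M counts of the scaled library (CPM). The markers of the other liver cells varied widely within each group. The summed CPM of 13 macrophage markers ran from 52.7 to 1581 in ND+veh, from 199.8 to 6002 in HFD+veh and from 19.5 to 1238 in HFD+eRapa. The summed CPM of 12 endothelial markers ran from 113.5 to 653.9, from 174.7 to 1117 and from 92.0 to 504.1 in the same groups. No macrophage or endothelial marker was at 0 in all libraries, and 7 hepatocyte markers together ran from 50770 to 160900 CPM over all libraries. In RNA from a bulk sample, fewer cells of a type and less RNA per cell cannot be told apart.

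The promoters of 7 of the 10 members were found in RefSeq (GRCm38.p6), and 4 are shown because the ratios of these genes to each other are compared in the results that follow. Each run is the 250 bases before the transcription start, read 5′ to 3′ on the strand of the gene. Capitals mark the letters of a TATA box (TATAAA), those of a GC box (GGGCGG, which reads CCGCCC from the opposite strand) and those of an AP-1 site (TGANTCA).
Ecm1, chr3:95739570-95739819, minus strand: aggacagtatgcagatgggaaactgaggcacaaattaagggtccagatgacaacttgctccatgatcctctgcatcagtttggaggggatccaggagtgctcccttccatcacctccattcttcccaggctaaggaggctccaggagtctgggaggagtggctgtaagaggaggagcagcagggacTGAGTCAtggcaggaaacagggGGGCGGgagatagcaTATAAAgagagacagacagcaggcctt
Reln, chr5:22344706-22344955, minus strand: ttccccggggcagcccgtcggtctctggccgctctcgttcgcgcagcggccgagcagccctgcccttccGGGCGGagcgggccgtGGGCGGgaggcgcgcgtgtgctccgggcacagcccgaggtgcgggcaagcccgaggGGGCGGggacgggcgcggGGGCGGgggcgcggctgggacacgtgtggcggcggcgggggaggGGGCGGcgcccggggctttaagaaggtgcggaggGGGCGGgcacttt
Lrat, chr3:82903975-82904224, minus strand: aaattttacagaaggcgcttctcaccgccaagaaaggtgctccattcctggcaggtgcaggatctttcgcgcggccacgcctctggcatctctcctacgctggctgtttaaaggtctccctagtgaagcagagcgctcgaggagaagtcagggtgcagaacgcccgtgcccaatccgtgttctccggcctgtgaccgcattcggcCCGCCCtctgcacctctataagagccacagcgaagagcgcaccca
Rgs5, chr1:169655251-169655500, plus strand: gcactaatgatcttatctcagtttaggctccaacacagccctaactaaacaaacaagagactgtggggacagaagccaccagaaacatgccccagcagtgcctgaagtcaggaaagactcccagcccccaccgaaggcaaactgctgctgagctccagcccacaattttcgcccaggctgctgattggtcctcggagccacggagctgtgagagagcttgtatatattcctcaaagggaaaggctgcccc

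The promoter of Ecm1 held TATAAA starting 27 bases before the start, GGGCGG at 42 bases and TGANTCA at 64 bases. None of the other 6 promoters found held TATAAA or TGANTCA. The promoter of Reln held 6 matches of GGGCGG and 37 CpG pairs in 80% G and C, where Ecm1 held 1 CpG pair in 54%. The promoter of Lrat held 1 match of GGGCGG, and that of Rgs5 held no match. Both strands were searched, the matches did not overlap, and of all 32851 promoters of the same length 12.4% held TATAAA, 32.7% GGGCGG and 6.75% TGANTCA. Of 3 further motifs, CANNTG (an E-box, in 66.2% of all promoters) was in those of Ecm1, Lrat, Des and Reln, CAGACA (a Smad element, in 17.1%) was in that of Ecm1, and the CArG box (in 1.47%) was in none of the 7. Such matches describe letters and not binding.

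Ecm1 was lower in every animal of HFD+eRapa than in any of ND+veh. Its level was lowest at 15.8, in the median 45.7 and highest at 93.1 CPM in ND+veh. In HFD+veh the lowest, median and highest levels were 9.76, 24.3 and 65.0 CPM. In HFD+eRapa they were 6.32, 10.6 and 14.9 CPM. ND+veh replicate 1 alone came near the range of HFD+eRapa, and the next animal of ND+veh was at 29.6 CPM. Against HFD+veh the groups overlapped, and 4 of 9 animals of HFD+eRapa were below the lowest of HFD+veh. On the log2 scale Ecm1 fell by 2.19 (SE 0.35) in HFD+eRapa against ND+veh, which is 4.55-fold lower, and by 1.68 (SE 0.36) against HFD+veh. Counted from the largest fall, Ecm1 held rank 62 among 12252 genes in the first comparison and rank 1121 in the second. HFD+veh did not pass the test against ND+veh (log2 fold change −0.51, SE 0.37, edgeR adjusted p = 0.31). The gene lies on chromosome 3 (GRCm38, minus strand, 95734147 to 95739569), and a microRNA gene, Mir7014, lies within it.

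**Figure D1:**
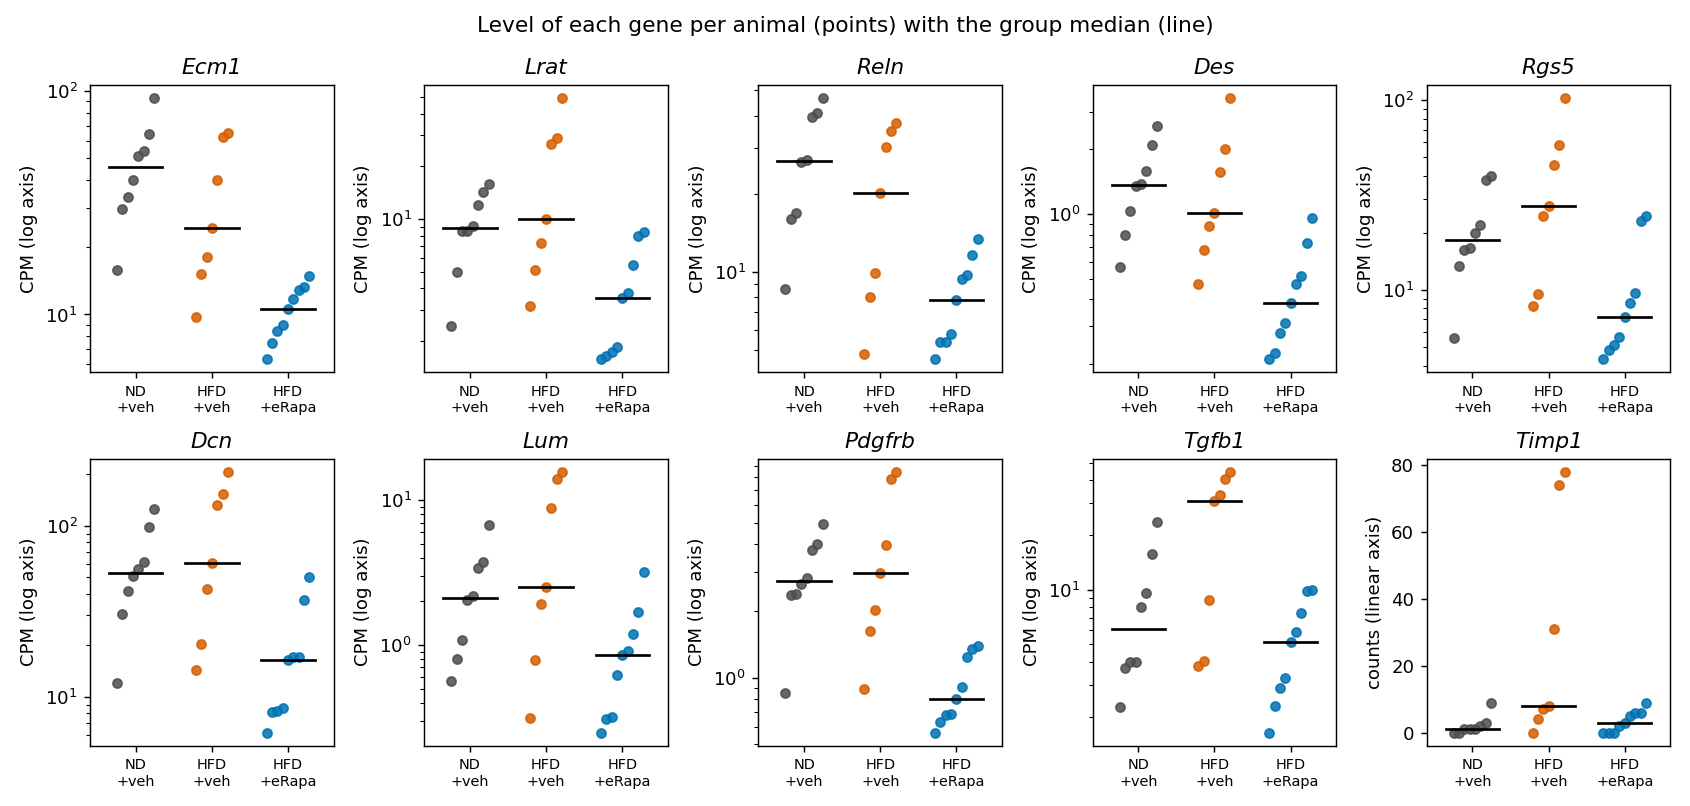
CPM of 9 genes on log axes and counts of Timp1 on a linear axis in the animals of ND+veh (8), HFD+veh (7) and HFD+eRapa (9), with 1 point per animal and a line at the group median. For Ecm1 all points of HFD+eRapa, up to 14.9 CPM, lie below those of ND+veh, which start at 15.8 CPM, and for the other genes the groups overlap.

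Among the genes that mark a stellate cell were Lrat, which encodes the enzyme that esterifies retinol for storage, Reln, which encodes the secreted glycoprotein reelin, and Des, which encodes the intermediate filament protein desmin. Lrat was lowest at 2.44, in the median 8.83 and highest at 15.8 CPM in ND+veh. The same values were 3.18, 9.95 and 49.1 CPM in HFD+veh and 1.58, 3.52 and 8.44 CPM in HFD+eRapa. The high end of HFD+veh came from replicates 6, 3 and 4, at 49.1, 29.1 and 26.8 CPM, and the groups overlapped in every comparison. For Lrat in HFD+eRapa the log2 fold change was −2.22 (SE 0.52) with HFD+veh as the base and −1.24 (SE 0.50) with ND+veh as the base, and the latter was not called.

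Reln was lowest at 8.63, in the median 26.7 and highest at 46.8 CPM in ND+veh. It was at 4.85, 20.2 and 37.5 CPM in HFD+veh and at 4.64, 7.80 and 13.4 CPM in HFD+eRapa. Like Ecm1, and unlike Lrat, its median was lower on the fat diet than on normal diet, with groups that overlapped widely (log2 fold change −0.41, SE 0.40, edgeR adjusted p = 0.457). In HFD+eRapa it fell by 1.77 (SE 0.38) on the log2 scale against ND+veh and by 1.36 (SE 0.39) against HFD+veh. The only gene tested of a list of 3 reelin receptor and adaptor genes, Vldlr, which encodes a reelin receptor, was not called in any comparison.

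Des was close to the detection limit, with 10 to 54 counts in ND+veh, 9 to 88 in HFD+veh and 4 to 20 in HFD+eRapa. Its medians were 1.37, 1.01 and 0.38 CPM in that order. Its fall of 1.63 (SE 0.39) on the log2 scale against ND+veh was close in size to that of 1.66 (SE 0.40) against HFD+veh. HFD+veh and ND+veh had nearly the same level (log2 fold change 0.03, SE 0.40), and leaving out single libraries turned the sign of that value.

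Rgs5, which encodes a regulator of G protein signalling, is found in pericytes as well as stellate cells. It was at 5.56, 18.3 and 40.0 CPM (lowest, median and highest) in ND+veh, at 8.28, 27.7 and 102.7 CPM in HFD+veh and at 4.34, 7.25 and 24.6 CPM in HFD+eRapa. The highest animal of HFD+veh was again replicate 6. Its log2 fold change was −1.93 (SE 0.50) against HFD+veh and −1.05 (SE 0.48) against ND+veh, and the second was not called. Of 9 pericyte and smooth muscle markers, 4 were tested and 1 was at 0 in all libraries. Their summed CPM ran from 1.99 to 12.5 in ND+veh, from 4.63 to 28.2 in HFD+veh and from 2.42 to 11.4 in HFD+eRapa. Of the 4, 2 were called higher in HFD+veh and 2 lower in HFD+eRapa against HFD+veh, and their part in the level of Rgs5 was not tested.

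Dcn and Lum encode decorin and lumican, small leucine-rich proteoglycans that bind collagen fibrils. Dcn was at 12.0, 53.1 and 124.8 CPM (lowest, median and highest) in ND+veh, at 14.4, 60.4 and 207.2 CPM in HFD+veh and at 6.16, 16.4 and 50.5 CPM in HFD+eRapa. Lum was at 0.57, 2.11 and 6.78 CPM, at 0.31, 2.50 and 15.8 CPM and at 0.25, 0.85 and 3.19 CPM in the same groups. In both genes HFD+veh replicate 6 was the highest animal and HFD+eRapa replicate 2 the highest of its group. Dcn had a log2 fold change of −2.27 (SE 0.55) against HFD+veh and of −1.66 (SE 0.53) against ND+veh, and both were called. The second call was lost without the filter on low counts and in 11 of the 24 fits that left out 1 library, each of them without an animal of ND+veh (replicates 4, 6, 7 and 8) or of HFD+eRapa (replicates 1, 3, 5, 6, 7, 8 and 9), and its log2 fold change ran from −2 to −1.41. Lum had the largest change of the members against HFD+veh (log2 fold change −2.60, SE 0.69) but was not called against ND+veh (−1.31, SE 0.66).

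Pdgfrb encodes the PDGF receptor that drives stellate cell growth. It was at 0.85, 2.73 and 4.92 CPM (lowest, median and highest) in ND+veh, at 0.89, 2.96 and 8.49 CPM in HFD+veh and at 0.56, 0.80 and 1.40 CPM in HFD+eRapa. In HFD+eRapa it spread less between animals (SD of log2 CPM 0.45) than in ND+veh (0.73) or HFD+veh (1.15). Of the 9 animals of HFD+eRapa, 5 lay below the lowest animal of either vehicle group. It fell by 2.11 (SE 0.40) on the log2 scale against HFD+veh and by 1.69 (SE 0.38) against ND+veh, and the second call was lost on the log2(FPKM + 1) scale.

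Tgfb1 encodes the ligand TGF-beta 1, which macrophages and endothelial cells also make. It was at 2.27, 6.05 and 23.6 CPM (lowest, median and highest) in ND+veh, at 3.79, 30.9 and 44.6 CPM in HFD+veh and at 1.63, 5.14 and 10.02 CPM in HFD+eRapa. In HFD+veh, 4 animals lay between 30.9 and 44.6 CPM, above every animal of the other groups, and 3 lay at or below 8.83 CPM. Its log2 fold change of 1.42 (SE 0.56) in HFD+veh against ND+veh missed the threshold in edgeR (adjusted p = 0.0654), and was called by DESeq2 (adjusted p = 0.0355) and without ND+veh replicate 8 or HFD+veh replicate 1, 2 or 7. Its log2 fold change was −2.14 (SE 0.56) against HFD+veh and −0.72 (SE 0.53) against ND+veh, the smallest of the members in the latter.

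Timp1, which encodes an inhibitor of matrix metalloproteinases, was at the limit of detection in most animals. Its counts ran from 0 to 9 in ND+veh and from 0 to 9 in HFD+eRapa. In HFD+veh they were 78, 74 and 31 in replicates 6, 4 and 3, and at most 8 in the other 4 animals. A count of 0 allows up to 3 counts in that library, the filter left the gene out of the edgeR test, and no fold change is given. Timp1 overlaps Syn1 in position. Whether their exons overlap was not examined and whether the counting used strand was not stated, so a part of Syn1 in its counts was not tested. Lrat (Rbm46os), Des (Gm15179) and Reln also overlap other genes.

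Levels can be compared between genes per length only, as FPKM. Over all 24 libraries the median was 20.95 FPKM for Dcn, 11.6 for Ecm1, 3.85 for Rgs5, 3.05 for Tgfb1, 1.67 for Reln and 1.20 for Lrat. Lum, Pdgfrb, Des and Timp1 were below 1, at 0.57, 0.29, 0.23 and 0.22 FPKM. Each gene's range over the libraries overlapped that of the next gene in the order. In ND+veh alone Ecm1, at a median of 36.7 FPKM, stood above Dcn, at 29.7.

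Between HFD+veh and ND+veh, 0 of the 9 members tested were called in edgeR, against 16.0% of all genes tested called higher and 9.86% called lower. Only Tgfb1 had an unadjusted p under 0.05, DESeq2 called Tgfb1 and Timp1 higher, and limma voom called no member. The members with log2 fold changes above 0 were Tgfb1, Des at 0.03, Lum at 1.29 (SE 0.68, edgeR adjusted p = 0.163), Lrat at 0.98 (SE 0.52, edgeR adjusted p = 0.163), Rgs5 at 0.88 (SE 0.51, edgeR adjusted p = 0.199), Dcn at 0.60 (SE 0.55, edgeR adjusted p = 0.432) and Pdgfrb at 0.42 (SE 0.39, edgeR adjusted p = 0.44). Single animals carried much of these values. Without HFD+veh replicate 6, Lrat was at 0.463, Rgs5 at 0.378, Dcn at 0.195 and Lum at 0.808, and without HFD+veh replicate 4 Pdgfrb was at 0.0711. The median log2 fold change of the members was 0.61, against 0.05 over all genes tested. No member had groups without overlap, a state that 2.44% of all genes tested showed. These libraries are shared with the other comparisons.

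Between HFD+eRapa and HFD+veh, 9 of 9 members were called lower and 0 higher, against 21.1% of all genes tested called lower and 10.9% higher. Their median log2 fold change was −2.11, from −2.60 in Lum to −1.36 in Reln, against −0.04 over all genes tested. The groups of each member overlapped, while 2.59% of all genes tested showed no overlap. All 9 stayed called in each of the 24 fits without 1 library, but limma voom called 7, without Reln and Lum, and Reln was not called with either FPKM pseudocount.

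Between HFD+eRapa and ND+veh, 5 of 9 members were called lower (Ecm1, Des, Reln, Dcn and Pdgfrb) and 0 higher, against 6.54% of all genes tested called lower and 6.93% higher. The median log2 fold change was −1.63, against −0.03 over all genes tested. Ecm1 alone of the 9 had groups without overlap, a state that 3.37% of all genes tested showed. This and the preceding comparison share the HFD+eRapa libraries and formed the choice of the members, so nothing is read from these counts.

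The markers of other cells were low together with the members against HFD+veh. Of 13 macrophage markers, 11 were called lower in HFD+eRapa against HFD+veh and 0 against ND+veh. Of 12 endothelial markers, 12 were called lower against HFD+veh and 0 in edgeR against ND+veh, where 0 macrophage and 2 endothelial markers had an unadjusted p under 0.05. DESeq2 and voom each called 1 endothelial marker lower there, Stab1, and no macrophage marker. In HFD+veh against ND+veh, 5 of 13 macrophage and 1 of 12 endothelial markers were called higher, and these counts were 9 and 3 with DESeq2 and 1 and 0 with voom. Of 11 stellate cell markers, 7 of which are members, 11 were called lower against HFD+veh and 7 against ND+veh. The part of macrophages and endothelial cells in the levels of the members was not tested beyond the fit with their score.

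Markers of the other cells were sparse. Of 4 tested portal fibroblast and mesothelial markers 3 were called higher in HFD+veh and 2 lower in HFD+eRapa against HFD+veh, and their summed CPM did not exceed 17.0. Lymphocyte markers (2 tested), neutrophil markers (3) and cholangiocyte markers (3) were called higher with the diet in 1, 2 and 3 and lower with eRapa on it in 1, 2 and 1. Their sums reached 497.3, 42.6 and 362.5 CPM in HFD+veh. Against ND+veh 1 cholangiocyte marker, Spp1, was called higher in HFD+eRapa. Spp1 is also made by macrophages and is counted again below among the genes of activation. It averaged 132.5 CPM in HFD+veh, where the cholangiocyte sum averaged 144.1 CPM. Of 7 hepatocyte markers 1 was called lower with the diet and 1 higher with eRapa on it.

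The mean score of the macrophage and endothelial markers was then added to the fit. Between HFD+eRapa and HFD+veh, 0 of 9 were called in edgeR (3.45% of all genes tested were called lower and 2.85% higher). The largest change left among the members was that of Pdgfrb, at −0.86 (SE 0.328) on the log2 scale. In this fit the difference of Ecm1 became −0.51 (SE 0.305) on the log2 scale, that of Reln −0.06 (SE 0.304) and that of Tgfb1 0.03 (SE 0.265). Between HFD+eRapa and ND+veh, 6 were called lower in that fit, where 10.1% of all genes tested were, with Ecm1 at −1.67 (SE 0.25), Pdgfrb at −1.23 (SE 0.27) and Reln at −1.22 (SE 0.24). Between HFD+veh and ND+veh, 3 members were called lower in that fit, where 5.94% of all genes tested were. These were Ecm1 at −1.16 on the log2 scale (SE 0.26), Reln at −1.16 (SE 0.26) and Dcn at −0.71 (SE 0.213), while Tgfb1 was at 0.15 (SE 0.233). Without the score none of them was called. The ND+veh libraries also served the choice of the members, so these calls are no independent evidence of a diet effect. The marker sums had higher medians in HFD+veh than in the other groups, so the score and the group are partly confounded.

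**Figure D2:**
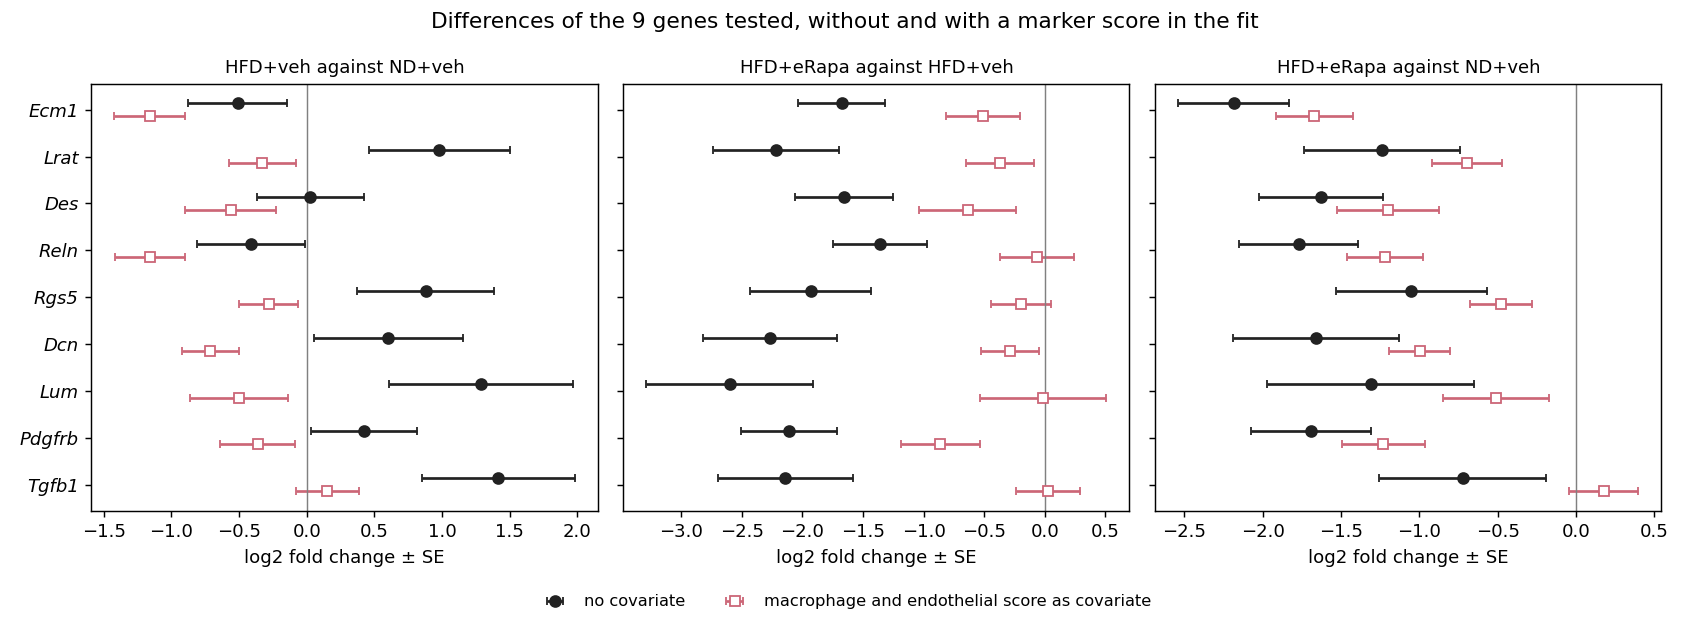
Log2 fold change with its SE (bars) of the 9 members tested in each comparison, from the fit without a covariate (filled circles) and with the macrophage and endothelial marker score (open squares). In HFD+eRapa against HFD+veh the open squares lie closer to 0 than the circles, with Ecm1 at −0.51, whereas in HFD+eRapa against ND+veh Ecm1 stays at −1.67.

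**Figure D3:**
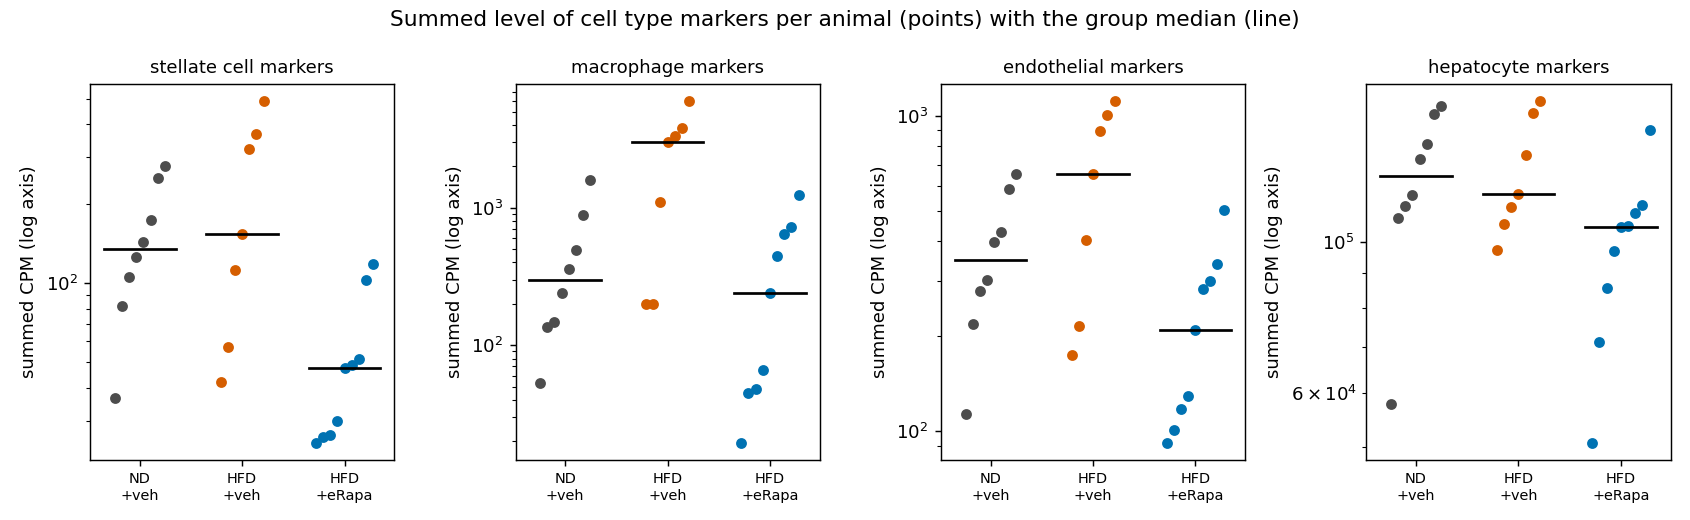
Summed CPM, on log axes, of 11 stellate cell, 13 macrophage, 12 endothelial and 7 hepatocyte markers per animal (points) in the 3 groups, with the group median (line). The macrophage sum reaches 6002 CPM in HFD+veh, against 1581 in ND+veh and 1238 in HFD+eRapa.

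The members varied together between animals of the same group. After the group means were subtracted from log2 CPM, the median Pearson correlation over 24 libraries was 0.84 among the 36 pairs of the 9 members, from 0.545 for Des with Rgs5 to 0.976 for Lrat with Dcn. The libraries share their depth and the isolation of the cells, and no test is attached. ND+veh replicate 1 had the lowest level of its group in 9 of 9 members, and ND+veh replicates 6 and 8 were among the 3 highest in 9 of 9. In HFD+veh, replicate 1 was lowest in 7 of 9 and replicates 3 and 4 were among the 3 highest in 9 of 9. In the same subtracted values Ecm1 correlated with the macrophage sum at 0.722, with the endothelial sum at 0.782, with the stellate sum, which does not contain it, at 0.789 and with the hepatocyte sum at −0.117.

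The spread between animals was wide for every member. The SD of log2 CPM of Ecm1 was 0.78 in ND+veh, 1.04 in HFD+veh and 0.41 in HFD+eRapa, where the median over all genes tested was 0.32, 0.45 and 0.31. Lum varied most, with an SD of 2.03 in HFD+veh. In every group each of the 9 members varied more than the median gene.

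Relative to Lrat, Ecm1 was low in most animals on the fat diet with vehicle. The ratio of the CPM of Ecm1 to that of Lrat ran from 3.92 to 6.49 in ND+veh, with a median of 5.30. In HFD+veh it ran from 0.495 to 4.02, with a median of 2.49, and in HFD+eRapa from 1.12 to 5.70, with a median of 3.93. Of the animals of HFD+veh, replicate 5 alone lay within the range of ND+veh. HFD+veh replicate 6, the animal with the most Lrat and Rgs5, had the lowest ratio. The ratio of Reln to Lrat had medians of 3.03, 1.40 and 2.57 in ND+veh, HFD+veh and HFD+eRapa. The ratio of Ecm1 to Pdgfrb ran from 12.5 to 20.5, from 6.13 to 13.5 and from 6.41 to 19.3 in the same order. The ratio of Rgs5 to Lrat had medians of 2.24, 2.16 and 2.89, and that of Ecm1 to Reln 1.84, 1.86 and 1.53. These ratios were chosen after the values were seen and carry no test.

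**Figure D4:**
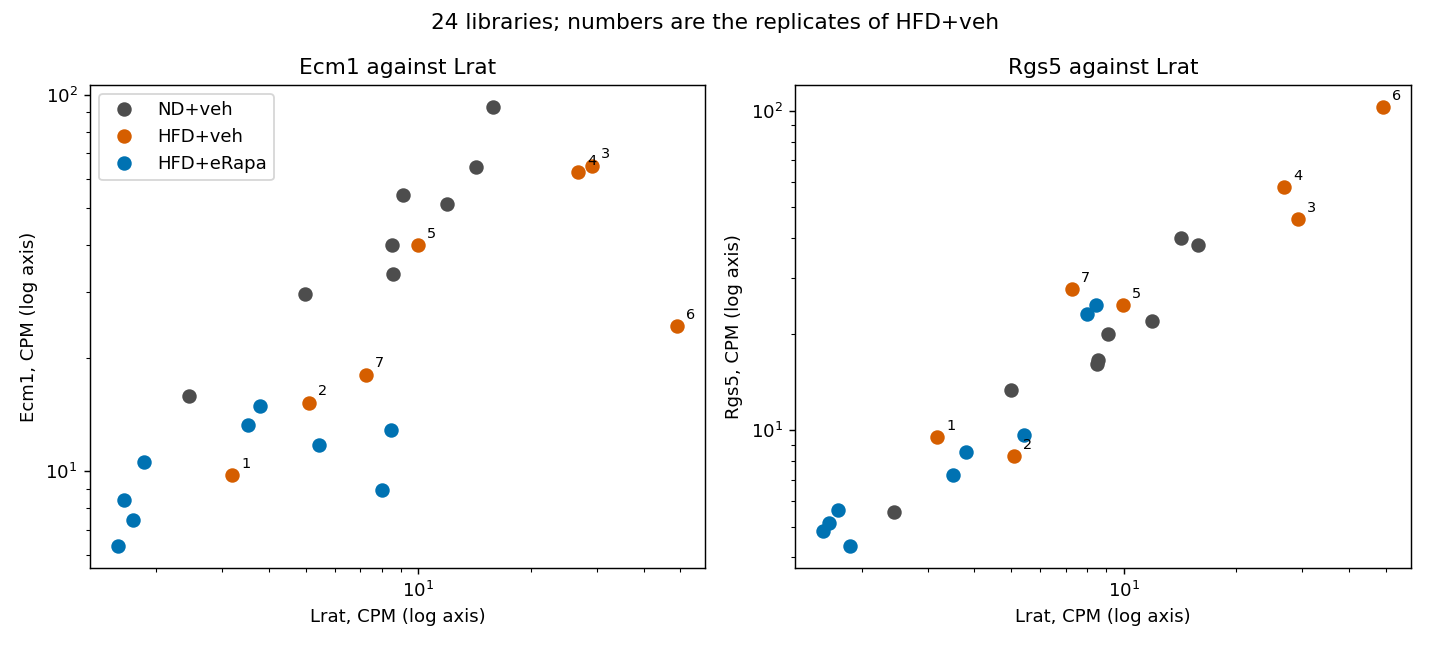
CPM of Ecm1 (left) and Rgs5 (right) against CPM of Lrat on log axes in 24 libraries, coloured by group, with the replicate numbers of HFD+veh. HFD+veh replicate 6 lies far to the right for Ecm1, with a ratio of 0.495, and with the other points for Rgs5.

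The 5 genes whose log2 CPM was most like that of Ecm1 within groups, among 11497 genes, were Cygb (r = 0.919), which encodes the stellate cell globin cytoglobin, Sod3 (0.919), an extracellular superoxide dismutase, Igfbp7 (0.918), Col4a2 (0.918), a basement membrane collagen, and Pth1r (0.916), the parathyroid hormone receptor. The 5 most like Pdgfrb were Col3a1 (0.939), Col1a1 (0.928), Col6a2 (0.924), Ntn1 (0.920) and Cadm3 (0.918). In HFD+eRapa against ND+veh, the log2 fold changes of the 5 genes like Ecm1 ran from −2.07 (SE 0.45) in Cygb to −0.76 (SE 0.40) in Col4a2. Those of the 5 genes like Pdgfrb ran from −2.36 (SE 0.62) in Col6a2 to −1.17 (SE 0.75) in Col1a1, and the ranges overlapped.

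The protein-coding neighbours of Ecm1 on chromosome 3 were read beside it. Mcl1 and Adamtsl4 on one side and Tars2 and Rprd2 on the other had log2 fold changes of 0.06 (SE 0.08), −1.28 (SE 0.46), 0.16 (SE 0.12) and 0.00 (SE 0.10) in HFD+eRapa against ND+veh, and none was called (edgeR adjusted p from 0.0653 to 0.996). The only call among them was a rise of Tars2, a mitochondrial threonyl-tRNA synthetase, in HFD+eRapa against HFD+veh (log2 fold change 0.41, SE 0.13, edgeR adjusted p = 0.0195).

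Other genes of the stellate cell and its signals were read from 11 lists with 144 symbols that are no members, of which 113 were tested. In HFD+veh against ND+veh, 28 rose and 8 fell, where 16.0% of all genes tested were called higher and 9.86% lower. With the macrophage and endothelial score in the fit, that split turned to 7 higher and 18 lower. With HFD+veh as the base, 6 rose and 61 fell in HFD+eRapa, where 10.9% of all genes tested were called higher and 21.1% lower, and the score left 3 higher and 6 lower. With ND+veh as the base 5 rose and 28 fell, where 6.93% of all genes tested were called higher and 6.54% lower, and with the score 8 were higher and 32 lower. The median log2 fold changes were 0.31, −1.23 and −0.56. These shares of all genes tested also apply to the counts of each list below. The lists were chosen with earlier results of these data known. Their p-values in the comparisons with HFD+eRapa are therefore no independent evidence.

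Among other genes of the stellate cell, 18 of 20 were tested. In HFD+veh against ND+veh 2 rose and 1 fell. In HFD+eRapa, 13 were called lower against HFD+veh, and 12 lower and 2 higher against ND+veh. Colec10, a collectin, went from 31.1 ± 27.2 CPM on the fat diet with vehicle (SD, n = 7) to 6.31 ± 5.07 CPM with eRapa (SD, n = 9). Abcc9, an ATP-sensitive potassium channel subunit, was at 15.6 ± 8.91 CPM (SD, n = 8) on normal diet with vehicle, against 4.37 ± 2.99 CPM (SD, n = 9) with eRapa.

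Of 13 tested of 20 genes of activation and contraction, 8 rose in HFD+veh against ND+veh, 11 fell and 1 rose in HFD+eRapa against HFD+veh, and against ND+veh 0 fell and 1 rose, with 3 at an unadjusted p under 0.05. DESeq2 and voom also called 0 lower and 1 higher there. Vim, the filament protein vimentin, rose by 2.19 (SE 0.68, edgeR adjusted p = 0.0225) on the log2 scale with the diet and fell by 2.85 (SE 0.67, edgeR adjusted p = 0.00334) with eRapa on it, but macrophages and endothelial cells express it as well. Spp1, osteopontin, which cholangiocytes and macrophages also make, rose by 5.31 (SE 0.76, edgeR adjusted p = 7.89e-05) with the diet and stayed higher than ND+veh in HFD+eRapa (log2 fold change 2.64, SE 0.67, edgeR adjusted p = 0.00903). Voom called 3 of these genes higher with the diet and DESeq2 12 of 18. The summed macrophage markers were at a median of 298.5 CPM in ND+veh, 3005 CPM in HFD+veh and 238.2 CPM in HFD+eRapa. They rose with the diet and fell with eRapa on it, as did most genes called in this list and in the collagens. Their part in the counts of single lists was not tested beyond the fit with the macrophage and endothelial score over all 11 lists.

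Fibrillar collagens, the main product of activated stellate cells, were called higher with the diet in 4 of 6 and lower with eRapa on it in 5 of 6. Against ND+veh 1 of 6, Col5a1, was lower in HFD+eRapa (log2 fold change −1.79, SE 0.51). Col1a1 was at 3.13 ± 3.18, 19.6 ± 24.9 and 1.39 ± 0.81 CPM in ND+veh, HFD+veh and HFD+eRapa (SD, n = 8, 7 and 9). Of 4 further small leucine-rich proteoglycans 1 fell with the diet, and 2, Bgn and Prelp, were called lower in HFD+eRapa in both comparisons. Bgn, biglycan, was at 37.6 ± 20.1, 46.4 ± 35.02 and 11.6 ± 5.76 CPM in ND+veh, HFD+veh and HFD+eRapa (SD, n = 8, 7 and 9).

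The TGF-beta system was read in 3 lists. Of 10 tested genes of the ligands, their latency and their release, 2 rose with the diet (Nrros, which holds latent TGF-beta on macrophages, and Itgav, an integrin subunit that helps to release it), and 8 fell in HFD+eRapa against HFD+veh. Against ND+veh, 1 was called, Ltbp1, a latent TGF-beta binding protein (log2 fold change −1.997, SE 0.58). Of 16 receptors and Smad proteins, 4 rose and 1 fell with the diet, 7 fell and 1 rose with eRapa on it, and 2 fell and 1 rose against ND+veh. The receptor gene Tgfbr1 rose by 1.26 (SE 0.30, edgeR adjusted p = 0.00548) with the diet, with an SD of 64.0 CPM around 70.2 CPM in HFD+veh. Bambi, which encodes a decoy receptor of this family, was lower in HFD+eRapa than in ND+veh (log2 fold change −1.20, SE 0.22). Of 11 target genes, 2 rose and 1 fell with the diet, 4 fell with eRapa on it, and 1, Ccn1, was lower against ND+veh (log2 fold change −1.24, SE 0.33, edgeR adjusted p = 0.0139).

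Of 5 PDGF ligands and receptors other than Pdgfrb, 1 rose with the diet, the ligand gene Pdgfd. In HFD+eRapa, 3 fell against HFD+veh, among them Pdgfra, the other receptor gene, and Pdgfra was also the 1 gene lower against ND+veh (log2 fold change −1.73, SE 0.49). Of 13 metalloproteinases and inhibitors, 5 rose with the diet and 8 fell and 1 rose with eRapa on it. Mmp12, the macrophage elastase, was at 2.03 ± 2.45, 96.1 ± 150.2 and 5.07 ± 5.47 CPM in ND+veh, HFD+veh and HFD+eRapa (SD, n = 8, 7 and 9). Timp3, a relative of Timp1 bound to the matrix, was at 8.23 ± 4.25, 21.1 ± 11.7 and 3.42 ± 2.44 CPM in the same order. Against ND+veh 4 of the 13 fell in HFD+eRapa, led by Reck, which encodes a membrane-anchored inhibitor of metalloproteinases (log2 fold change −2.41, SE 0.37).

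Genes of vitamin A handling, many of them expressed by hepatocytes, were the last list. Of 18 tested, 2 rose and 4 fell with the diet, 3 rose and 1 fell with eRapa on it, and 2 rose and 4 fell in HFD+eRapa against ND+veh. Pnpla3, a lipase of lipid droplets that also cleaves retinyl esters, was at 10.4 ± 7.11, 1.36 ± 1.03 and 0.44 ± 0.66 CPM in the order ND+veh, HFD+veh, HFD+eRapa (SD, n = 8, 7 and 9). Rbp4, the retinol carrier that hepatocytes secrete, rose by 0.53 (SE 0.16, edgeR adjusted p = 0.0167) in HFD+eRapa against HFD+veh. Aldh1a1, which makes retinoic acid, was higher in HFD+veh (log2 fold change 0.81, SE 0.18, edgeR adjusted p = 0.00324) and in HFD+eRapa (0.94, SE 0.17, edgeR adjusted p = 0.000495) than in ND+veh.

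**Figure D5:**
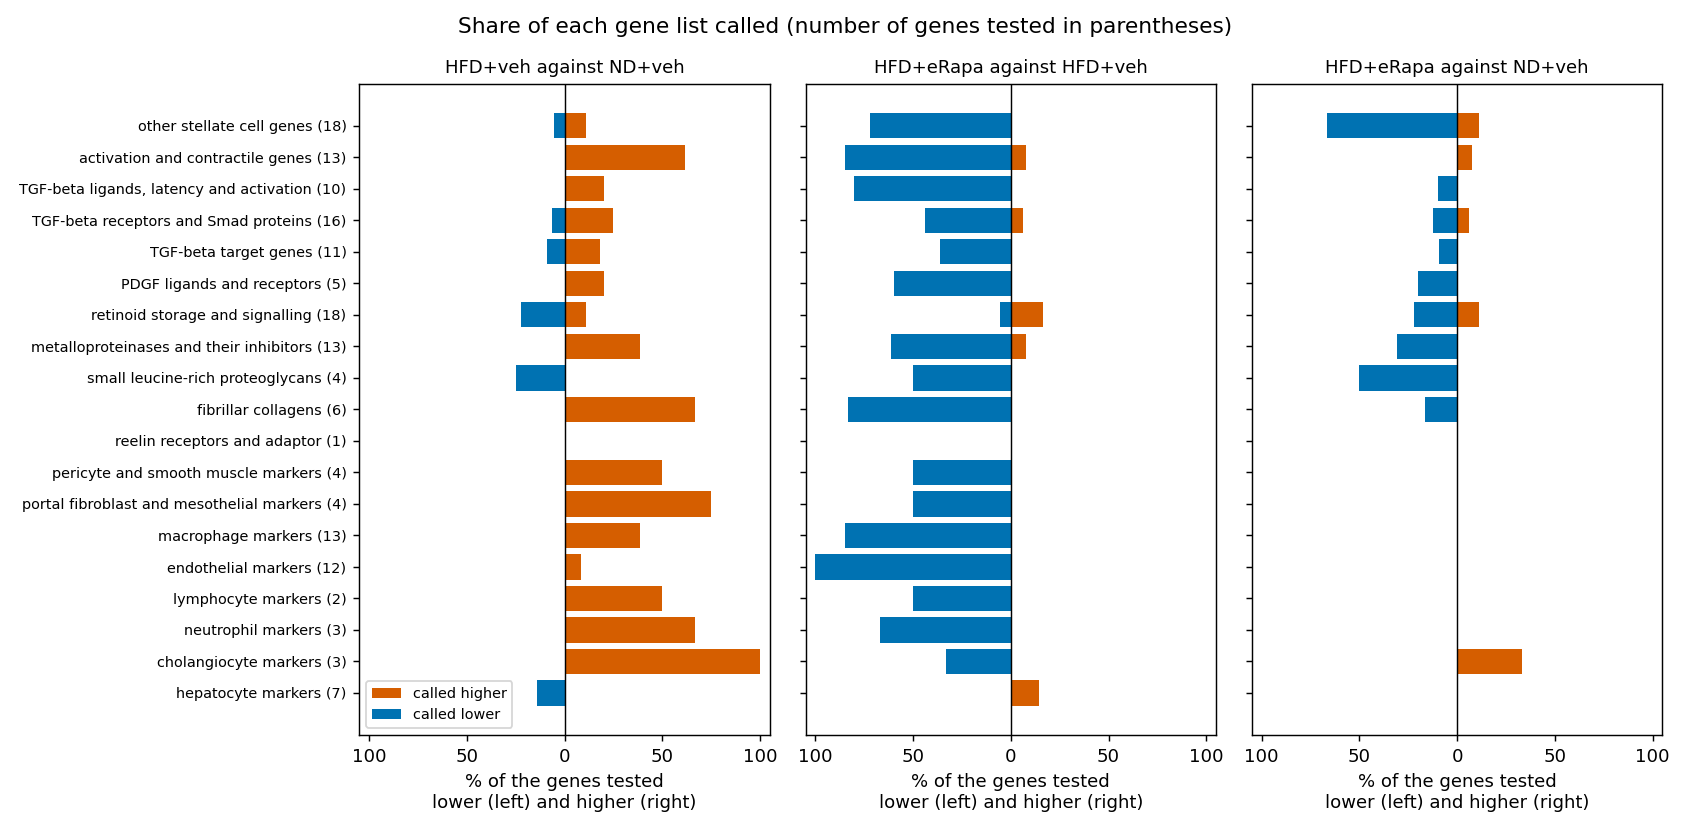
Percent of the tested genes of each list (number in parentheses) called higher (right) or lower (left) in the 3 comparisons. Against HFD+veh the bars of HFD+eRapa run to the left in most lists, with 12 of 12 endothelial markers, while against ND+veh the longest bar to the left is that of the other stellate cell genes, with 12 of 18.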

How the data were processed

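RNA of isolated liver cells from 24 mice was measured. Per the labels all libraries carry batch 1. The authors aligned reads with STAR to mm10 (Gencode M23 by the study's methods), filtered them with SAMtools 1.1.0 and made the deposited counts with HTSeq 0.11.2, as raw whole reads per gene. Strand use in counting was not given in the sources used here. The deposited FPKM values were made by the authors with Cufflinks. Libraries held 17.7 to 25.9 M counts. Coordinates are of Gencode M21 (GRCm38, the assembly of mm10).

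Counts were tested with edgeR 4.0.16 (R 4.3.3): filterByExpr by group, TMM, and the quasi-likelihood test (robust) in 1 fit of 3 groups without covariates, with Benjamini-Hochberg adjustment over 13847 genes. A gene with adjusted p under 0.05 was called. The SE of a log2 fold change is its size over the root of the F statistic. Log2 CPM used a prior count of 2. No pair of libraries of a group agreed within sampling noise (chi-square per degree of freedom at least 11.3). Scripts were tested on simulated data.

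The members and the gene lists were chosen with earlier results of these data known. From each pathway list, up to 4 called genes with the largest absolute log2 fold change per comparison and a mean of at least 1 CPM could be named. Likeness was the Pearson correlation of log2 CPM after subtracting group means. The 2 protein-coding neighbours on each side of Ecm1 were named too, and Vldlr, Stab1 and the ratios were chosen after their values were seen. Tried as alternatives were DESeq2 1.42.0, voom of limma 3.58.1 (library groups weighted), size factors of DESeq2 in edgeR, no filter, fits of only the groups compared, the replicate number as a block, marker covariates, limma on log2(FPKM + 0.1) and log2(FPKM + 1), and the removal of each library. Labels share replicate numbers between groups of different animals, and these numbers were not taken as pairs. The authors' own comparisons were not used.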

Additional observations from a re-analysis of the deposited data

Results flagged for a closer look

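Values were checked in 42 groups of 7 to 9 samples for an animal far from the rest, and 3 stood out where about 2.1 (1 in 20) would by chance. Log2 CPM of Pdgfrb in ND+veh replicate 1 was −0.07857, with the next animal at 1.30, and this animal was the lowest of its group for all 9 members tested. The total of HFD+veh replicate 3 was 19.85 M counts, with the next library at 21.26 M. The log2 summed CPM of the hepatocyte markers in ND+veh replicate 4 was 15.82, with the next at 16.73, while its stellate cell marker sum of 174 CPM lay within the range of its group.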

How the results depend on the processing

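Between HFD+veh and ND+veh, 3584 genes, 0 members and 36 pathway genes passed. Genes called were 1866 with voom, 2333 with only the 2 groups, 1719 with the macrophage and endothelial score and 2207 with log2(FPKM + 0.1). Members called were 2 with DESeq2, 1 without a filter, 3 with the score, and 1 with either FPKM pseudocount. Pathway genes called were 16, 23 and 21 with voom, only 2 groups and log2(FPKM + 0.1). Leaving out 1 library gave 2106 (without HFD+veh replicate 6) to 4479 genes, 0 to 1 members and 18 to 46 pathway genes. Between HFD+eRapa and HFD+veh, 4432 genes, 9 members and 67 pathway genes became 872, 0 and 9 with the score, and leaving out 1 library gave 3269 to 5061, 9 to 9 and 52 to 75. Against ND+veh, the 33 pathway genes became 20 with log2(FPKM + 1), and leaving out 1 library gave 1462 to 2232 genes, 4 to 5 members and 24 to 36 pathway genes.

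With the replicate number as a block, which keeps only the libraries with shared numbers, 2 members passed for HFD+veh with ND+veh, and 305 genes, 0 members and 2 pathway genes between HFD+eRapa and HFD+veh. Same-numbered samples correlated at a mean of 0.316, −0.245 and −0.203 in the 3 comparisons. They correlated above 0.1 in 5 of 7, 2 of 7 and 2 of 8 pairs. The mean was thus positive between HFD+veh and ND+veh and negative in the comparisons with HFD+eRapa. Whether same-numbered samples share more than a number was not tested further. The call of Dcn against ND+veh was lost with the block too.

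The log2 fold change of Des between HFD+veh and ND+veh changed sign to −0.0717 (voom), −0.014 (no filter), −0.025 (hepatocyte total), −0.14 and −0.031 (FPKM) and −0.56 (score), and ran from −0.397 to 0.203 without 1 library. With the score Lrat (−0.33), Rgs5 (−0.28), Dcn (−0.71), Lum (−0.50) and Pdgfrb (−0.36) changed sign there, as did Tgfb1 against HFD+veh (0.026) and ND+veh (0.18). The cause was not tested. Of the other values of single members, 280, 284 and 289 kept direction and side of the threshold in the 3 comparisons. Depth limits Timp1, Des, Lum and Pdgfrb, which had 20 counts or fewer in some libraries.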
